A study of Mus musculus with 4 samples.

Results

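Expression of 10 genes of the transforming growth factor β (TGF-β) system was examined in mouse articular cartilage with and without injury. They comprised the ligands Tgfb1, Tgfb2 and Tgfb3, the receptors Tgfbr1, Tgfbr2 and Tgfbr3, the latent TGF-β binding protein (LTBP) genes Ltbp1, Ltbp2 and Ltbp3, and Tgfbi, whose product is a matrix protein named for its induction by TGF-β. They were taken by symbol from the deposited table, in which each symbol had 1 entry among 24532 genes. The mice were wild type (C57BL/6) throughout, without a transgene or deletion, and fell into sham and injured groups, both young and adult. Young mice were 3 weeks old. For the adults one label gives 12 weeks and another 14 weeks, and the methods of the study give a younger age. By the study's methods the injury was a full-thickness cartilage injury (FTCI), which is a defect of the femoral cartilage, whereas the sample titles name DMM surgery. Both injured samples and the young sham sample are labelled as day 3, and adult sham as days 3 to 14. RNA came from pools of mice, with fewer mice in sham than in injured pools. Each group therefore had 1 library, so no difference below has a replicate check, no p-value or error is given, and neighbouring levels cannot be told apart by their spread.

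TGF-β is secreted in an inactive form, in which the mature dimer stays bound to its own propeptide. Most LTBPs tie this latent complex to fibrillin and fibronectin fibres, from which integrins, thrombospondin 1 or proteases release it. Free TGF-β binds the type II receptor, which phosphorylates the type I receptor, and this activates Smad2 and Smad3, which enter the nucleus with Smad4. Betaglycan, the product of Tgfbr3, is an accessory receptor that presents ligand, TGF-β2 above all. In cartilage TGF-β is known for restraining hypertrophy and for keeping the matrix of the articular surface.

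Levels are in FPKM, that is, fragments per transcript length and per mapped fragments of the library, so levels of different genes may be compared. Differences are log2 ratios of FPKM + 1, and a ratio of at least 1 in either direction (2-fold) was called. All 10 genes exceeded 1 FPKM in every library. The libraries themselves were shifted against each other. For the 10891 genes detected at 1 FPKM or more throughout, the median ratio was −0.04 (injury, young), 0.23 (injury, adult), −0.30 (adult over young, sham) and −0.07 (adult over young, injured). The summed FPKM ranged from 469939 to 533468. The lowest values tended to fall on steps that would mean 25900000 to 30900000 fragments per library if 1 step is 1 fragment. The cell type label is chondrocyte, and all 8 chondrocyte markers exceeded 1 FPKM in every library, but so did 6 of 6 osteoblast, 8 of 8 macrophage and 7 of 7 neutrophil markers, while 0 of 5 T cell markers did in any. In bulk tissue, fewer cells of a type and less RNA per cell cannot be told apart.

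**Figure D1:**
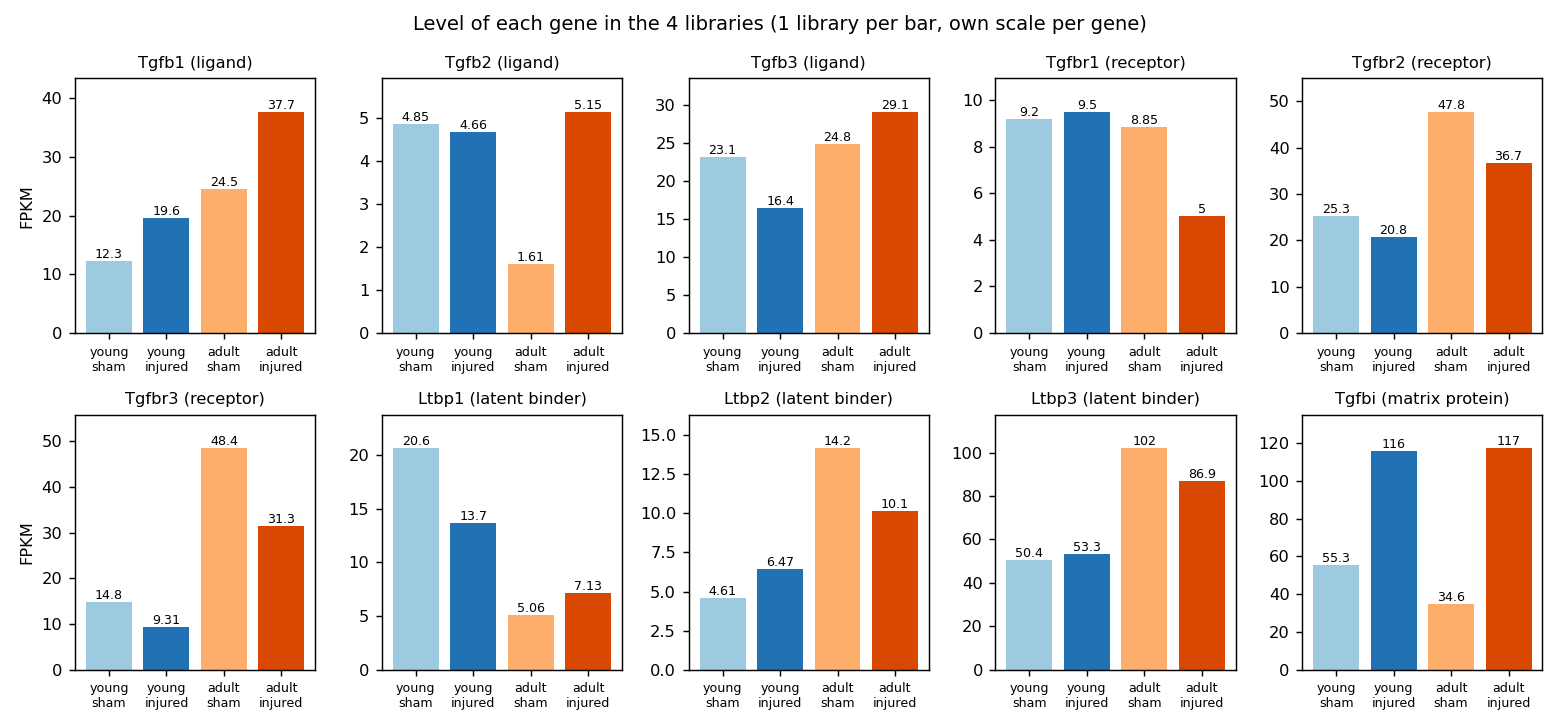
FPKM (y axis, from 0, own scale per gene) of the 10 genes in the 4 libraries (x axis), 1 bar per library and no error bar since each group had 1 library. Tgfb1 was lowest in young sham at 12.3 and highest in adult injured cartilage at 37.7 FPKM, Tgfbi was higher in both injured than in both sham libraries, and Tgfbr3 was higher in both adult than in both young libraries.

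Promoter sequence of Tgfb1, Tgfb2 and Tgfbi, the genes at least 1.5-fold higher after injury at 1 or both ages, is shown as context for their levels. RefSeq promoter windows on GRCm38.p6, the assembly of mm10, matched 8 of the 10 genes, and Tgfb3 and Tgfbr3 had no entry. All windows were searched on both strands for GTCT (or AGAC), the core element that Smad3 and Smad4 bind, the GC box GGGCGG (or CCGCCC), the AP-1 element TGANTCA and TATAAA (or TTTATA). The lines give the 250 bases before an annotated start, 5′ to 3′ on the strand of the gene, and capitals mark the Smad element and the GC box.
Tgfb1, chr7:25686752-25687001, plus strand: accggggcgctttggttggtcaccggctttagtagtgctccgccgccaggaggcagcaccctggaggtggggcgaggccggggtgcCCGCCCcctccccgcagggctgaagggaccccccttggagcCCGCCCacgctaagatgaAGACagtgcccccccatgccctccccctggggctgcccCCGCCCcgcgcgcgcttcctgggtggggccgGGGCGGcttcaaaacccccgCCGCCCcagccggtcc
Tgfb2, chr1:186705990-186706239, minus strand: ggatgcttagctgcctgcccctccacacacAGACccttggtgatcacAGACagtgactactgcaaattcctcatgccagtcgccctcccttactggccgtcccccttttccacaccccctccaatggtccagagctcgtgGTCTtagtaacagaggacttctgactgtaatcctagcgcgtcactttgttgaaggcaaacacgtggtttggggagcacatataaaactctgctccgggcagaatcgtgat
Tgfbi, chr13:56609336-56609585, plus strand: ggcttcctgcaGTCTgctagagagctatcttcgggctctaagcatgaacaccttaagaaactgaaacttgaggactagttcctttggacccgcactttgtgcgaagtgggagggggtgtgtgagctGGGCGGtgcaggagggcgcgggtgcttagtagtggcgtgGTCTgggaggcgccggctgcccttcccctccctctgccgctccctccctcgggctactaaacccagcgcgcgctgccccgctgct
The Tgfb1 window held 5 GC boxes and 1 Smad element, and 75.2% of its bases were G or C, more than in 96.1% of all 32851 windows. The Tgfb2 window held 3 Smad elements, no GC box, and a TATAAA 31 bases before the start. This window lies inside the span of the gene, so its start is not the outermost one. Tgfb2 has 2 RefSeq transcripts. The Tgfbi window held 2 Smad elements and 1 GC box. None of these 3 windows held TGANTCA. Over all windows the shares with a match were 82.9% for the Smad element, 32.7% for the GC box, 6.75% for TGANTCA and 12.4% for TATAAA. A Smad element is thus found in most promoters, and a match is not a binding site.

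Among the ligands, Tgfb1 was higher after injury at both ages and higher in adult than in young cartilage, Tgfb2 was low in adult sham cartilage alone, and Tgfb3 was lowest in young injured cartilage. Tgfb1 (Entrez 21803, chr7:25687002-25705077, coordinates on GRCm38.p6 here and below) codes for the isoform that leukocytes and platelets carry. It measured 12.3 FPKM with sham and 19.6 FPKM with injury in young mice, against 24.5 and 37.7 FPKM in adults. The values are given in the order sham, injured at each age, here and below. Each injured library was above the sham of its age, and both adult libraries were above both young ones. The injury ratio was 0.63 (young) and 0.60 (adult) on the log2 scale, or 1.59-fold and 1.54-fold in FPKM, short of 2-fold. Adult cartilage exceeded young cartilage by a ratio of 0.94 among shams and 0.91 among injured joints. Median-of-ratios scaling, which centres the bulk of genes with a single factor per library, brought the sham ratio to 1.31 and past 2-fold, and the adult injury ratio down to 0.33. On the TPM scale the injured ratio of the ages was 1.11, past 2-fold.

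Markers of some blood cells differed after injury too. All 8 macrophage markers were at least 2-fold higher at both ages, and they summed to 181 FPKM with sham and 1773 FPKM with injury in young mice, and 300.4 and 1549.7 FPKM in adults. The 5 megakaryocyte and platelet markers summed to 19.6 FPKM with sham and 131 FPKM with injury in young mice, and 24.7 and 78.4 FPKM in adults, with 4 of 5 called as higher in the young and only Pf4 in the adult, where 3 of 5 had ratios above 0. Of 7 neutrophil markers 3 were called as higher in the young and 0 in the adult. Of all genes tested, 4.57% (young) and 6.9% (adult) were called as higher. Most of the platelet sum after injury was Pf4, a platelet chemokine gene that macrophages also express, with 91.4 FPKM in young injured and 58.8 FPKM in adult injured cartilage. None of the markers of these lists was at 0 in any library. Between the injured libraries, where Tgfb1 was 1.93-fold higher in the adult, the macrophage sum of the adult was 0.874 times and the platelet sum 0.597 times that of the young. The part of these cells in the Tgfb1 level was not tested.

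Tgfb2 (Entrez 21808, chr1:186622787-186709697), the isoform that depends most on betaglycan, measured 4.85 FPKM with sham and 4.66 FPKM with injury in young mice, against 1.61 and 5.15 FPKM in adults. Adult sham was the low library and the other 3 lay close together. The injury ratio was −0.05 (young) and 1.24 (adult), and adult over young sham gave −1.17. Adult sham was also low for many other genes, since 365 of 18181 (2.01%) were at least 2-fold lower there than in each other library. Median-of-ratios scaling left 172 such genes, without Tgfb2, whose smallest gap to another library was then 0.87 on the log2 scale. On the TPM scale there were 695 such genes (3.82%), Tgfb2 among them with a gap of 1.21. The adult injury ratio of Tgfb2 was 1.51 on the TPM scale, 1.06 with median-of-ratios scaling and 0.87 after quantile normalization, which forces 1 common distribution on the libraries. It was 1.62 with a pseudocount of 0.1 FPKM and 0.62 with 5 FPKM. Exons of Tgfb2 overlap an antisense gene over 124 bases.

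Tgfb3 (Entrez 21809, chr12:86056743-86079041), the isoform best known from palate and tendon, measured 23.1 FPKM with sham and 16.4 FPKM with injury in young mice, against 24.8 and 29.1 FPKM in adults. Young injured cartilage was lowest and adult injured cartilage highest. The injury ratio was −0.47 in the young, whereas in the adult it was 0.22 and turned to −0.04 with median-of-ratios scaling. Adult over young was 0.10 among shams and 0.79 among injured joints. Exons of Tgfb3 overlap genes of the opposite strand, over 257 bases at most. The kit kept strand, but whether counting used it is not given in the sources used here.

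The makeup of the ligands inside a library is untouched by a factor common to that library. In young sham cartilage Tgfb3 held 57.4% of the summed FPKM of the 3 ligands and Tgfb1 30.6%. With injury in the young, Tgfb1 held 48.1% and Tgfb3 40.4%. In adult sham the shares were nearly level, 48.2% for Tgfb1 and 48.7% for Tgfb3. Tgfb1 led in adult injured cartilage with 52.4%, and Tgfb2 had the smallest share in every library, from 3.16% (adult sham) to 12.1% (young sham).

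**Figure D2:**
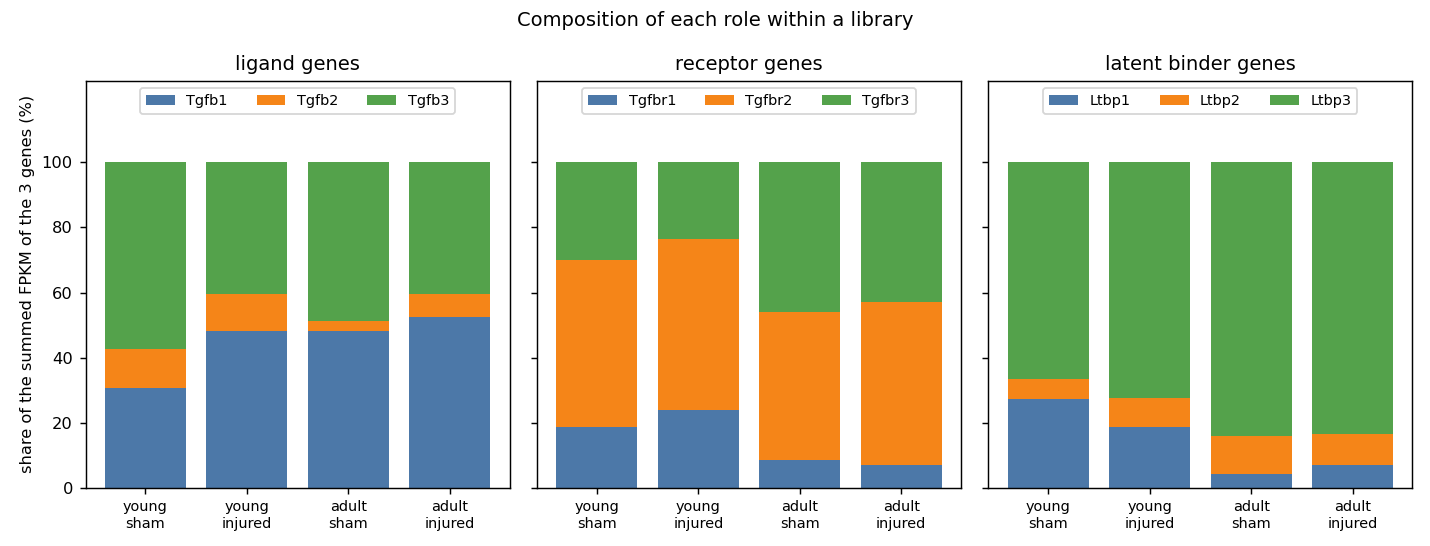
Share (y axis, percent of the summed FPKM of the 3 genes of a role) in each of the 4 libraries (x axis), with 1 stacked bar per library. Tgfb1 goes from 30.6% in young sham to 52.4% in adult injured cartilage, Tgfbr3 has a larger share in both adult libraries, and the share of Ltbp1 is 27.3% in young sham and 4.18% in adult sham cartilage.

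The receptors Tgfbr2 and Tgfbr3 were higher in adult than in young cartilage and lower in each injured library than in its sham, whereas Tgfbr1 was low in adult injured cartilage only. Tgfbr3 (Entrez 21814, chr5:107106567-107289629) measured 14.8 FPKM with sham and 9.31 FPKM with injury in young mice, against 48.4 and 31.3 FPKM in adults. Both adult libraries were above both young ones. Adult over young gave 1.64 among shams and 1.65 among injured joints, 3.27-fold and 3.37-fold in FPKM, and both ratios stayed past 2-fold under every pseudocount and scaling tried. Of all genes tested, 99.1% (sham) and 99.5% (injured) had a lower ratio. Its injury ratio was nearly equal at the 2 ages, −0.62 and −0.61, and short of 2-fold. An exon of Tgfbr3 overlaps a gene model of the same strand over 297 bases.

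Tgfbr2 (Entrez 21813, chr9:116087695-116175363), the type II receptor that ligand binds first, measured 25.3 FPKM with sham and 20.8 FPKM with injury in young mice, against 47.8 and 36.7 FPKM in adults. Its libraries fell in the same order as those of Tgfbr3 with respect to age and injury. Adult over young was 0.89 (sham) and 0.79 (injured), and the sham value was 1.27 with median-of-ratios scaling. Injury ratios were −0.27 (young) and −0.37 (adult).

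Tgfbr1 (Entrez 21812, chr4:47353222-47414926), the type I receptor kinase that phosphorylates Smad2 and Smad3, measured 9.20 FPKM with sham and 9.50 FPKM with injury in young mice, against 8.85 and 5.003 FPKM in adults. The first 3 of these lay close together. The injury ratio was −0.71 in the adult and 0.04 in the young, where it turned to −0.07 when libraries were set to equal sums (TPM). Adult over young was −0.81 among injured joints, and among shams −0.05 as deposited but 0.30 with median-of-ratios scaling. Of the summed FPKM of the receptors, Tgfbr1 held 18.7% (sham) and 23.99% (injured) in the young, against 8.42% and 6.85% in adults. Tgfbr2 held between 45.5% and 52.5%, and Tgfbr3 between 23.5% and 46.1%.

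Among the LTBP genes, Ltbp1 was lower and Ltbp2 and Ltbp3 were higher in adult than in young sham cartilage, each past 2-fold. Ltbp1 (Entrez 268977, chr17:75005480-75392512), which binds the TGF-β propeptide covalently, measured 20.6 FPKM with sham and 13.7 FPKM with injury in young mice, against 5.06 and 7.13 FPKM in adults. Both young libraries were above both adult ones. Adult over young was −1.84 among shams, where the young level was 4.08 times the adult one, and −0.85 among injured joints. The injury ratio was −0.56 in the young and 0.42 in the adult.

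Ltbp3 (Entrez 16998, chr19:5740900-5758536), which also carries latent TGF-β, was the most abundant latent binder, with 50.4 FPKM with sham and 53.3 FPKM with injury in young mice, against 102 and 86.9 FPKM in adults. Adult over young was 1.00 among shams, just past the threshold, and it was 0.98 on the TPM scale and 0.95 with a pseudocount of 5 FPKM. Injury ratios were 0.08 (young) and −0.23 (adult), and the young one turned to −0.03 on the TPM scale. Ltbp2 (Entrez 16997, chr12:84783212-84876558), a microfibril protein that does not bind latent TGF-β, measured 4.61 FPKM with sham and 6.47 FPKM with injury in young mice, against 14.2 and 10.1 FPKM in adults. Adult over young was 1.43 (sham) and 0.58 (injured), and a pseudocount of 5 FPKM brought the sham ratio just below the threshold, to 0.995. The injury ratios, 0.41 and −0.44, had signs opposite to those of Ltbp1 at each age. Exons of Ltbp2 overlap an antisense gene over 764 bases.

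Within the summed FPKM of the 3 LTBPs, Ltbp1 held 27.3% (sham) and 18.6% (injured) in the young, against 4.18% and 6.85% in adults. Ltbp3 held between 66.6% and 84.1%. Markers of skeletal cells differed between the ages too. The 8 chondrocyte markers summed to 16018 FPKM with sham and 14384 FPKM with injury in young mice, and 31362 and 17719 FPKM in adults. Chad, a cartilage matrix gene, made 20538 FPKM of this in adult sham, although the median marker ratio of adult over young sham was −1.24. The 6 osteoblast markers summed to 759.8 FPKM with sham and 1435 FPKM with injury in young mice, and 5108 and 5741 FPKM in adults. Ibsp, the gene of bone sialoprotein, made 369 FPKM of this in young and 4136 FPKM in adult sham, and 4 of the 6 were called as higher in adult sham, where 2.66% of all genes tested were. The 5 skeletal muscle markers summed to 477 FPKM with sham and 480.2 FPKM with injury in young mice, and 1107 and 326 FPKM in adults, and 4 of 5 were called as lower after injury in the adult and none in the young, where 1.46% and 1.27% of all genes tested were. None of these markers was listed at 0, and their part in the differences of receptors and LTBP genes was not tested.

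Tgfbi (Entrez 21810, chr13:56609586-56639359), a secreted protein that binds collagens and integrins, was the only one of the 10 genes past 2-fold after injury at both ages. It measured 55.3 FPKM with sham and 116 FPKM with injury in young mice, against 34.6 and 117 FPKM in adults. The injured libraries were level with each other and above both shams. The injury ratio was 1.05 in the young and 1.73 in the adult, or 2.09-fold and 3.38-fold in FPKM. The young call depended on scaling, with 0.94 on the TPM scale and 0.96 after quantile normalization, whereas the adult ratio was at least 1.46 under every scaling. The ratio of adult over young was −0.66 among shams and 0.02 among injured joints. Of all genes tested, 95.7% (young) and 98.1% (adult) had a lower injury ratio. Macrophages and fibroblasts make this protein. Beside the macrophage sums above, 6 fibroblast markers summed to 1854 FPKM with sham and 5068 FPKM with injury in young mice, and 1858 and 7215 FPKM in adults, with none at 0. Of these 6, 3 were called as higher at each age, and 1, Dpt, named after its values were seen, had a ratio of −0.64 in the young and of −1.08, a call as lower, in the adult. The shares of all genes tested were 4.57% higher in the young, and 6.9% higher and 1.46% lower in the adult. The part of these cells in the Tgfbi level was not tested.

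**Figure D3:**
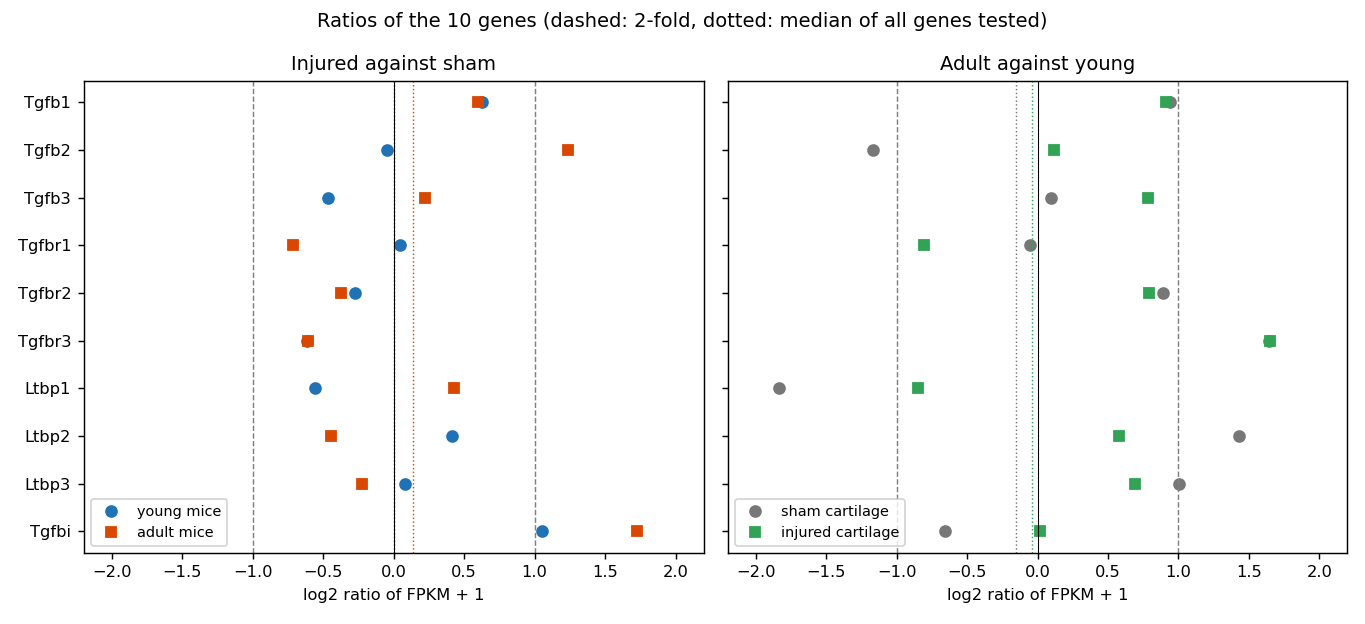
Log2 ratios of FPKM + 1 (x axis) of the 10 genes (y axis), for injury at each age on the left and for adult against young cartilage on the right, 1 point per pair of libraries. Tgfbi lies past the dashed 2-fold lines at both ages after injury, Tgfb2 in adult mice only, and Tgfbr3 in both comparisons of the ages.

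Over the 10 genes, injury in the young gave 1 call, Tgfbi, where 5.83% of the 18181 genes tested were called and 4.57% were called as higher. Injury in the adult gave 2 calls, Tgfb2 and Tgfbi, both higher, where 8.37% of genes were called and 6.9% as higher, or 4.76% as higher and 2.50% as lower with median-of-ratios scaling. Adult over young sham gave 5 calls, where 13.3% of genes were called. The 3 that were higher in the adult (Tgfbr3, Ltbp2, Ltbp3) stand beside 2.66% of genes, and the 2 lower ones (Tgfb2, Ltbp1) beside 10.6%. With median-of-ratios scaling or quantile normalization this split became 5 higher and 1 lower, as Tgfb1 and Tgfbr2 passed the threshold and Tgfb2 no longer did, while 5.35% of genes were higher and 5.55% lower with the former. Adult over young injured gave 1 call, Tgfbr3, as higher, where 4.89% of genes were called, 1.8% as higher and 3.09% as lower. The median ratio of the 10 genes was −0.003 for injury at either age, 0.49 for age among shams and 0.64 among injured joints. Medians of all genes tested were 0 and 0.14 for injury, and −0.15 and −0.04 for age. These comparisons share libraries, so their values are not independent.

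Other genes of the pathway were examined as 5 lists of 40 genes in all. Injury gave 7 calls in the young, 4 higher and 3 lower, where 5.83% of all genes tested were called. In the adult it gave 9, 6 higher and 3 lower, or 5 and 4 with median-of-ratios scaling, where 8.37% of all genes were called as deposited. The median ratio was −0.16 in the young and 0.22 in the adult, where it turned to −0.01 with median-of-ratios scaling and −0.08 after quantile normalization. Of the 10 genes of latency and activation, 1 was higher and 1 lower in the young, and 2 higher and 1 lower in the adult. Thbs1, the gene of the TGF-β activator thrombospondin 1, measured 412 FPKM with sham and 119.9 FPKM with injury in young mice, against 469.97 and 55.8 FPKM in adults. Both injured libraries were far below both shams, by 3.44-fold in the young and 8.43-fold in the adult. Nrros, which anchors latent TGF-β on macrophages and microglia, measured 2.16 FPKM with sham and 9.12 FPKM with injury in young mice, against 2.18 and 10.95 FPKM in adults, ratios of 1.68 and 1.91. Lrrc32 codes for GARP, the anchor on regulatory T cells and platelets, and its injury ratios were 0.57 (young) and 1.19 (adult). Fbn1, the fibrillin to which LTBPs attach, ranged from 24.5 (adult injured) to 42.7 FPKM (young sham), with injury ratios of −0.37 and −0.20.

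Of the 7 other receptor genes none was called in the young and only Bambi, a decoy receptor without a kinase domain, in the adult, where 5.83% (young) and 8.37% (adult) of all genes tested were called. Bambi measured 23.6 FPKM with sham and 11.5 FPKM with injury in young mice, against 50.9 and 17.5 FPKM in adults. It was lower in each injured library, with ratios of −0.98 and −1.49. Eng codes for the accessory receptor endoglin of endothelium and macrophages, and its ratios were 0.66 and 0.47. The 5 endothelial markers summed to 12.8 FPKM with sham and 58.9 FPKM with injury in young mice, and 14.8 and 51.7 FPKM in adults, with none at 0, and their part in the level of Eng was not tested.

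The intracellular genes are read beside calls for 5.83% (young) and 8.37% (adult) of all genes tested. None of the 6 Smad and cofactor genes was called after injury, and their ratios lay between −0.43 and 0.19 in the young and between −0.19 and 0.62 in the adult. Smad3 had the highest mean of the list, with 15.6 FPKM with sham and 17.8 FPKM with injury in young mice, against 23.6 and 30.5 FPKM in adults. Smad4, which TGF-β and BMP signals share, ranged from 12.0 (adult sham) to 18.7 FPKM (young sham). Of the 8 antagonist and feedback genes none was called in the young and only Tgif1, a corepressor of Smad2, in the adult, with ratios of 0.47 and 1.06. The corepressor Ski had ratios of −0.60 and 0.26, and the phosphatase gene Ppm1a of −0.21 and −0.24.

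The 9 target genes split in direction, with 3 higher and 2 lower in the young and 3 higher and 1 lower in the adult. Of all genes tested, 4.57% were called as higher and 1.27% as lower in the young, and 6.9% and 1.46% in the adult. Junb, an early target and AP-1 subunit, measured 5.16 FPKM with sham and 24.7 FPKM with injury in young mice, against 15.8 and 57.9 FPKM in adults. Postn, which codes for the matrix protein periostin, measured 10.9 FPKM with sham and 60.9 FPKM with injury in young mice, against 13.8 and 56.8 FPKM in adults. Col1a1, the gene of a type I collagen chain, measured 203 FPKM with sham and 615 FPKM with injury in young mice, against 223 and 741 FPKM in adults. These 3 were the higher ones at both ages. Col1a1 is also one of the 6 osteoblast markers above. The summed level of the fibroblast markers was 2.73 times that of sham in the young and 3.88 times in the adult, and their part in the levels of Postn and Col1a1 was not tested.

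The lower targets differed between the ages. Prg4, the gene of the surface lubricant lubricin, measured 2049 FPKM with sham and 421 FPKM with injury in young mice, against 3565 and 2658 FPKM in adults, ratios of −2.28 and −0.42. Acta2, the smooth muscle actin gene of myofibroblasts and vessels, measured 95.7 FPKM with sham and 44.6 FPKM with injury in young mice, against 7.73 and 15.2 FPKM in adults, ratios of −1.08 and 0.89. Those were the 2 lower targets of the young, and Acta2 was lowest in adult sham cartilage. Ctgf, which codes for connective tissue growth factor, measured 1156 FPKM with sham and 688 FPKM with injury in young mice, against 3904 and 1619 FPKM in adults. It was highest in adult sham cartilage, and with an injury ratio of −1.27 it was the lower target of the adult, against −0.75 in the young.

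**Figure D4:**
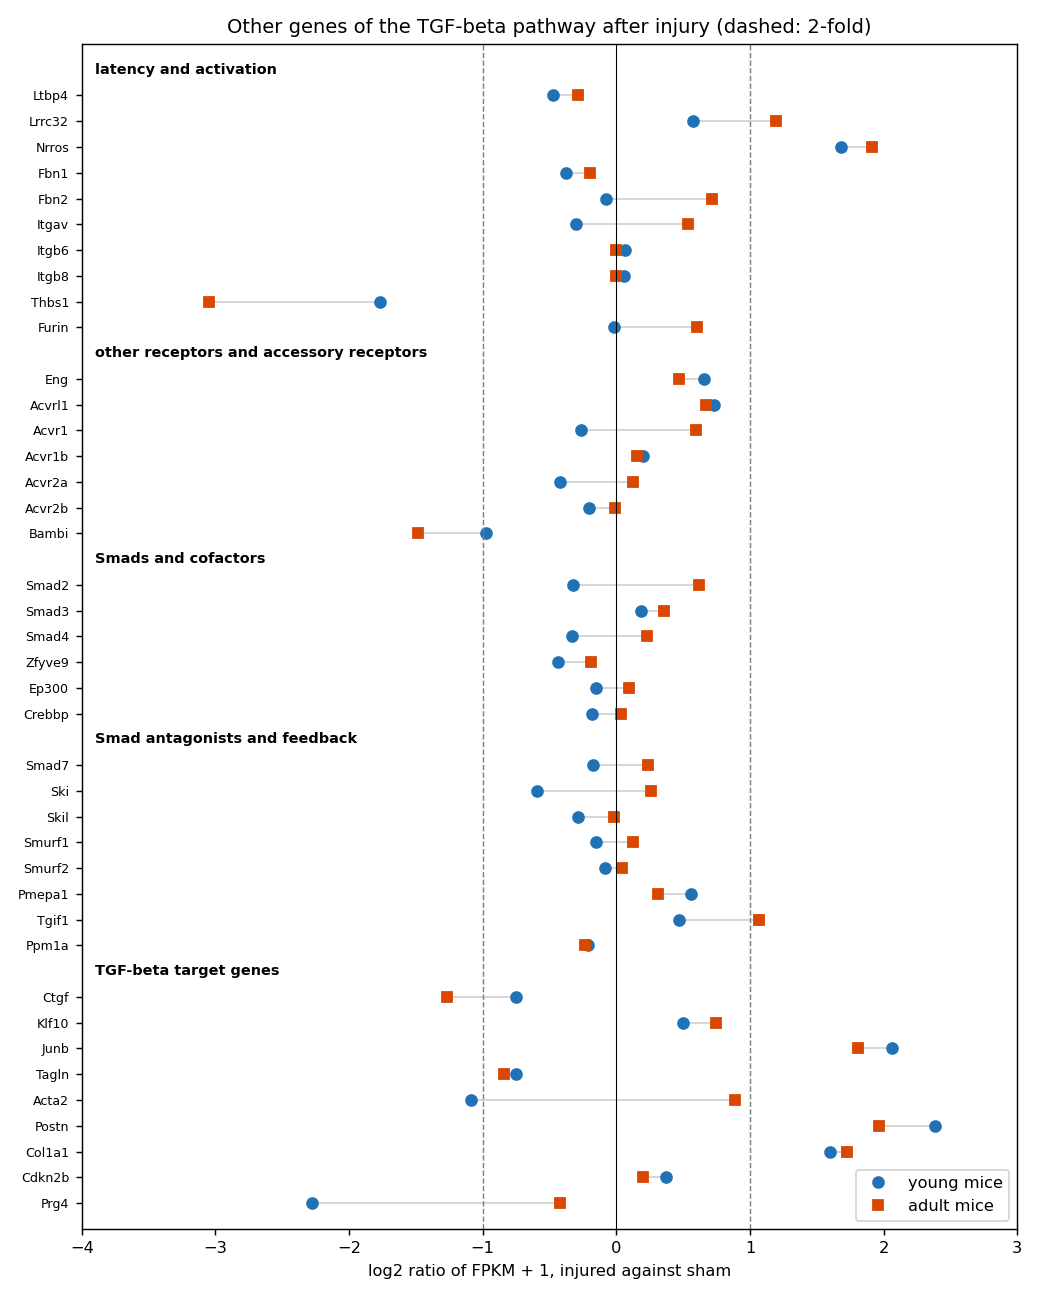
Log2 ratios of FPKM + 1 after injury (x axis) for the 40 genes of the 5 pathway lists (y axis), with separate symbols for young and adult mice, 1 pair of libraries each. Thbs1 lies farthest to the left at −3.05 in adult mice, Junb, Postn and Col1a1 lie past 2-fold at both ages, and Acta2 has opposite signs at the 2 ages.

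Between the ages 6 of the 40 genes were called among shams, 3 higher and 3 lower in the adult, where 13.3% of all genes tested were called (2.66% higher, 10.6% lower). Among injured joints 5 were called, 3 higher and 2 lower, where 4.89% of all genes were. With median-of-ratios scaling the sham split was 4 to 2, and on the TPM scale the injured split was 3 to 1. Bambi, Ctgf and Junb were higher in adult sham, with ratios of 1.08, 1.76 and 1.45. Lower were Acta2 (−3.47) and, outside the rule for named genes and named after their values were seen, Fbn2 (−1.17) and Smad2 (−1.01). Among injured joints Prg4 (2.65), Ctgf (1.23) and Junb (1.20) were higher in the adult, and Acta2 (−1.49) and Thbs1 (−1.09) lower.

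Genes with a like pattern over the 4 libraries were sought among the 8054 others whose mean reached 5 FPKM, by the Euclidean distance of centred log2(FPKM + 1). With 4 libraries such likeness is a description only. Nearest to Tgfbi were Tpd52 (distance 0.12), Ctsl (0.14) and Syk (0.14). Ctsl, which codes for the lysosomal protease cathepsin L, measured 38.9 FPKM with sham and 71.5 FPKM with injury in young mice, against 22.9 and 77.1 FPKM in adults. Syk, a kinase gene of myeloid cells, measured 4.38 FPKM with sham and 10.1 FPKM with injury in young mice, against 2.09 and 9.19 FPKM in adults. Nearest to Tgfbr3 were Tnfrsf11b (0.11), Selenbp1 and Adck3. Tnfrsf11b, the gene of the osteoclast inhibitor osteoprotegerin, measured 112 FPKM with sham and 66.9 FPKM with injury in young mice, against 347 and 210.4 FPKM in adults. Ltbp1 lay nearest to Smarca1 (0.050), Epm2aip1 and Zfp354c, Ltbp2 to Cyb5r3 (0.073), Tnip2 and Hspb2, and Ltbp3 to Dalrd3 (0.061), Tle6 and Lgals4. Tgfb2 lay nearest to Ctnnd1 (0.090), Derl2 and Atp6v1g1, each of them also low in adult sham cartilage alone.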

How the data were processed

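RNA was sequenced in pairs from stranded poly-A libraries of pooled cartilage. The authors deposited 1 table of FPKM for 24532 genes on mm10. The submitters' processing notes name HISAT2 2.1.0, StringTie 1.3.4d, HISAT, STAR and SAMtools, without roles. Each library's column was identified by the sample description. FPKM do not correct a general shift between libraries.

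Log2 ratios of FPKM + 1, which understate changes of low genes, were calculated for 4 comparisons over 18181 genes above 0 in at least 1 library. With 1 library per group no pair of libraries could be tested, and an additive model of age and injury, which would leave 1 residual degree of freedom, was not fitted. The members and lists were chosen with earlier results of these data known. A gene of the target list is not reported here and enters no count of the lists. Named genes were the 10 members, list genes past 2-fold after injury, the 2 with the highest mean of each list (1 of each marker list), and the 3 genes nearest to each member past 2-fold. Of the marker genes so chosen, those that bear on a member are printed. Alternatives were pseudocounts (0.1 and 5 FPKM), a 1 FPKM filter, TPM, median-of-ratios and quantile scaling, and 1.5-fold and 3-fold thresholds. A value counted as moved past 1.5-fold, on either scale.

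At most 4.13% of the 31-base words of a member's transcripts occur in another gene. The code was checked on copies of the young sham library (24532 genes) without added noise. All 200 genes changed 4-fold were recovered and 0 others called, an outcome that the lack of noise fixed in advance. This says nothing about false calls between single libraries. Of marker lists whose sums are not set beside a result, 5 erythroid genes summed to 9619.8 FPKM with sham and 18371 FPKM with injury in young mice, and 6944 and 3026 FPKM in adults, 7 neutrophil genes to 1184 FPKM with sham and 2413 FPKM with injury in young mice, and 1585 and 1905 FPKM in adults, and 5 T cell genes to 0.332 FPKM with sham and 1.03 FPKM with injury in young mice, and 0.226 and 1.25 FPKM in adults. Python 3.11.15, numpy 2.4.6, pandas 2.3.3 and matplotlib 3.10.9 were used.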

Additional observations from a re-analysis of the deposited data

Results flagged for a closer look

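Injury ratios of opposite sign in young and adult mice were found for 6 of the 10 genes, and with 1 library per group the difference between the ages was not tested. Of the 18181 genes tested, 8623 had a ratio above 0 and 9079 below 0 in the young, and 12223 and 5017 in the adult. The share of all genes with opposite signs was not counted, so the 6 of 10 cannot be set beside it. The difference of the log2 ratios, young minus adult, was −1.28 for Tgfb2, −0.69 for Tgfb3, 0.76 for Tgfbr1, −0.99 for Ltbp1, 0.86 for Ltbp2 and 0.31 for Ltbp3. The sign of one of the 2 ratios changed with the scaling for Tgfbr1 and Ltbp3 (young) and for Tgfb3 (adult). Among the named pathway genes, signs were opposite for Smad4 (−0.57), Ski (−0.85) and Acta2 (−1.97), and this was not tested either. The adult ratios of Smad4 (0.23) and Ski (0.26) were close to the median adult injury ratio of 10891 genes, which was 0.23 as deposited and −0.00495 with median-of-ratios scaling. Adult sham was the lowest of the 4 libraries for Acta2.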

How the results depend on the processing

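Under 6 alternatives, 238 of 240 ratios of the 10 genes moved by less than 1.5-fold, and no ratio past 2-fold changed sign. The 1 FPKM filter leaves the ratio of each kept gene unchanged, so its 40 ratios could not move. TPM and median-of-ratios scaling apply a single factor per library and so shift most genes alike. The count of 238 is therefore no measure of reliability. The 2 that moved were those of Tgfb2 with a pseudocount of 5 FPKM, 0.62 (injury, adult) and −0.58 (age, sham), and its difference of injury ratios was then −0.65. That pseudocount also gave 1 call for adult injury, 2 for age among shams, and 3 pathway calls for the latter. TPM gave 0 calls for young injury and 2 (Tgfb1, Tgfbr3) for age among injured joints. The TPM shares of all genes tested were 5.35% higher and 2.37% lower for young injury. For age among injured joints they were 3.44% higher and 3.405% lower. Quantile normalization gave 0 calls for young and 1 for adult injury. Its shares of all genes tested were 4.07% higher and 1.496% lower (young), and 3.99% higher and 2.69% lower (adult). At 1.5-fold there were 3 (young injury), 5 (adult injury), 8 (age, sham) and 7 (age, injured) calls, and 13, 17 and 11 pathway calls for the first 3. At 3-fold there were 0, 1 and 2 calls for the first 3, and 5 (adult injury), 2 (age, sham) and 1 (age, injured) pathway calls. Counts at other thresholds follow from the threshold. The share of all genes called was not counted at 1.5-fold, at 3-fold or with a pseudocount of 5 FPKM, so these counts cannot be set beside it. The cause of the other moves was not tested. The pathway median for age among shams went from −0.19 to 0.12 with median-of-ratios scaling. Shares of ligands, and of receptors and LTBP genes (added after seeing the data), moved by less than 1.5-fold after quantile normalization. No paired analysis was run, and no result comes from a test. No library could be left out because each group has 1 library.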
